A study of Mus musculus with 9 samples.

Results

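The Hox genes described here are 10 members of the Hoxa and Hoxb clusters, Hoxa5, Hoxa7, Hoxa9, Hoxa10, Hoxb2, Hoxb3, Hoxb4, Hoxb5, Hoxb6 and Hoxb7. They were taken by symbol from the 47643 genes of the count table. RNA was sequenced from donor-derived long-term hematopoietic stem cells (LT-HSCs), sorted from mouse bone marrow as Lin-cKit+Sca1+Flk2-CD48-CD150+, in 9 libraries with 3 per genotype. WT donors carried Mx1-Cre alone, TKO donors were Pik3ca lox/lox, Pik3cb lox/lox, Pik3cd-/- with Mx1-Cre, and δKO littermate controls carried the same floxed and deleted alleles without Cre. In every group the marrow had been transplanted into lethally irradiated recipients, which received pIpC, an inducer of the interferon-responsive Mx1 promoter, at 250 µg in 2 injections 48 hours apart, and marrow was harvested 4 weeks later. The Mx1 promoter acts in interferon-responsive cells, so excision is not restricted to HSCs, and the same interferon stimulus was given to the controls. For each genotype, marrow cells of its 7 recipients had been combined ahead of antibody staining, and the sources do not say whether the 3 libraries of a genotype are separate animals, so p-values measure the spread between these libraries.

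Hox genes encode homeodomain transcription factors that lie in ordered clusters and set positional identity in the embryo. In blood, genes of the Hoxa cluster and of the anterior part of Hoxb are most active in stem and early progenitor cells and are shut down as cells mature. Their proteins bind DNA together with partners of the TALE class such as Meis1, the MLL (Kmt2a) complex maintains their transcription and Polycomb complexes repress it.

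The Hoxa members lie together on the minus strand of chromosome 6 of mm10, from 52201754 (Hoxa5) to 52240854 (Hoxa10), and the Hoxb members on the plus strand of chromosome 11, from 96286623 (Hoxb7) to 96354012 (Hoxb2). They resemble one another in sequence, which bears on how reads are counted. Over the homeobox of 180 bases, in the GENCODE M21 transcript with the longest coding sequence, base identity between members ranged from 57.8% (Hoxa10 with Hoxb3) to 88.9% (Hoxb6 with Hoxb7) across 45 pairs. The encoded homeodomains of Hoxa5 and Hoxb5, members of the same paralogue group, were identical at all 60 residues although their bases matched at only 83.9%. The longest exact run that a member shared with a transcript of any other Hox gene was 52 bases, between Hoxb4 and Hoxa6, and the shortest was 21 bases, for Hoxa10. Reads falling wholly inside such runs could be assigned to either gene, and the assignment of such reads is not given in the sources used here.

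Antisense genes set another limit, because strand is not stated to have been used in counting. Of the exon bases of Hoxb3, 52.9% overlapped Hoxb3os on the opposite strand, as did 27.3% of Hoxb2, while Hoxa7 shared 20.4% with Hoxaas3 and Hoxb5 3.59% with Hoxb5os. If strand was not used, reads from these shared bases cannot be assigned to a strand, while reads from the remaining exon bases can be assigned by position. Hoxa5, Hoxa10, Hoxb4, Hoxb6 and Hoxb7 shared no exon bases with another gene.

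The libraries held between 31300343 and 60386097 counts. Genes detected ranged from 18180 in δKO replicate 1 and 18500 in the δKO library that carries no replicate number in the labels (the δKO unnumbered library) to 22703 in TKO replicate 3. All 10 genes of the HSC marker list were detected in every library, with a summed level of 1319 to 1671 CPM over WT libraries, 1363 to 2770 over δKO libraries and 1875 to 2194 over TKO libraries (depth-scaled counts with TMM factors, which balance library composition). All TKO libraries thus lay above all WT libraries in this sum. Neutrophil markers summed to 5306 to 12378 CPM over WT libraries, 273 to 12464 over δKO libraries and 167 to 3270 over TKO libraries. Lymphoid markers summed to 111 to 418 CPM over WT libraries, 21.1 to 237 over δKO libraries and 38.4 to 103 over TKO libraries. All TKO libraries thus lay below all WT libraries in both of these sums. Sums of erythroid, monocyte and macrophage, megakaryocyte, and stromal and endothelial markers overlapped between TKO and WT. The part of these marker sums in the Hox values was not tested. Xist, the RNA that coats the inactive X chromosome of female cells, was at 32.1 to 59.5 CPM in 4 libraries and at 3227 to 6393 CPM in the other 5, with both levels found in every genotype, and mitochondrial genes took 7.63% to 18.4% of the counts. The part of either in the Hox values was not tested. By Xist, libraries of the same genotype differed in their share of female cells, so they were not equal portions of a single mixed pool. Whether each came from a single animal is not stated. Of the targeted genes, Pik3cb was at 30.96 ± 4.77 CPM in TKO against 56.2 ± 10.1 in WT (SD, n = 3), with no overlap of libraries (edgeR log2 fold change −0.86, adjusted p = 1.00). Pik3cd was at 72.6 ± 1.25 CPM in TKO and 66.9 ± 26.6 in δKO against 116 ± 20.5 in WT (SD, n = 3), also without overlap, whereas Pik3ca, at 60.2 ± 7.59 in TKO and 57.1 ± 10.1 in WT, did not separate the genotypes. A count over a whole gene can include reads from exons that an allele leaves in place.

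Of the 10 members, 9 passed the filter on low counts and entered the fit of 18205 genes. Levels were compared between genes per length, as counts per kilobase of exon scaled to the same total in each library (TPM). By the median over 9 libraries the order was Hoxa9 (10.4 TPM), Hoxa7 (9.32), Hoxa5 (6.01), Hoxb4 (5.71), Hoxb5 (5.44), Hoxa10 (3.44), Hoxb3 (2.32), Hoxb2 (0.748), Hoxb6 (0.687) and Hoxb7 (0). Each neighbor in this order overlapped the next in range over the libraries. Distant positions overlapped too, as Hoxa9 (2.28 to 16.9 TPM) did with Hoxb6 (0.0111 to 6.62). Only Hoxb7 (at most 0.891) lay wholly below other members, namely Hoxa9, Hoxa5 and Hoxb5. A short gene model, Gm23935, took between 15.9% and 54.8% of the length-scaled total, which lowers every TPM in the libraries where its share is high, so levels across libraries are given as TMM-scaled CPM or CPM per kilobase. On the latter scale Hoxa7 (5.92) came ahead of Hoxa9 (4.87) and Hoxb6 (0.399) ahead of Hoxb2 (0.312), and the remaining order was kept.

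**Figure D1:**
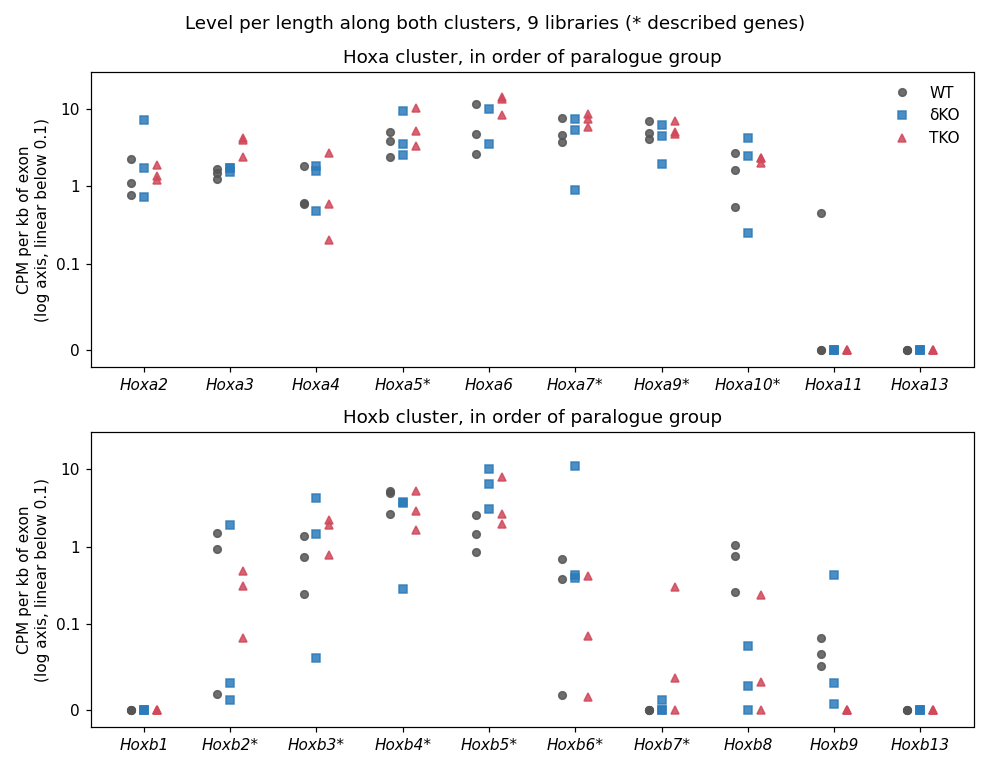
Level of genes of the Hoxa (top) and Hoxb (bottom) cluster, ordered by paralogue group, in TMM-scaled CPM per kilobase of exon on an axis that is logarithmic above 0.1 and linear below. Each point is 1 library (circles WT, squares δKO, triangles TKO) and stars mark the 10 genes described. Hoxa2 to Hoxa10 and Hoxb2 to Hoxb6 carried signal, while Hoxa13, Hoxb1 and Hoxb13 were at 0 in all 9 libraries.

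The 4 Hoxa members supplied a median of 65.1% of the summed level of the 10 members per length, with a range from 40.3% in δKO replicate 1 to 81.2% in TKO replicate 1. The most abundant member differed between libraries of the same genotype. It was Hoxa7, Hoxb4 and Hoxa9 in WT replicates 1, 2 and 3, Hoxb6, Hoxa9 and Hoxa7 in δKO, and Hoxa5, Hoxb5 and Hoxa7 in TKO.

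**Figure D2:**
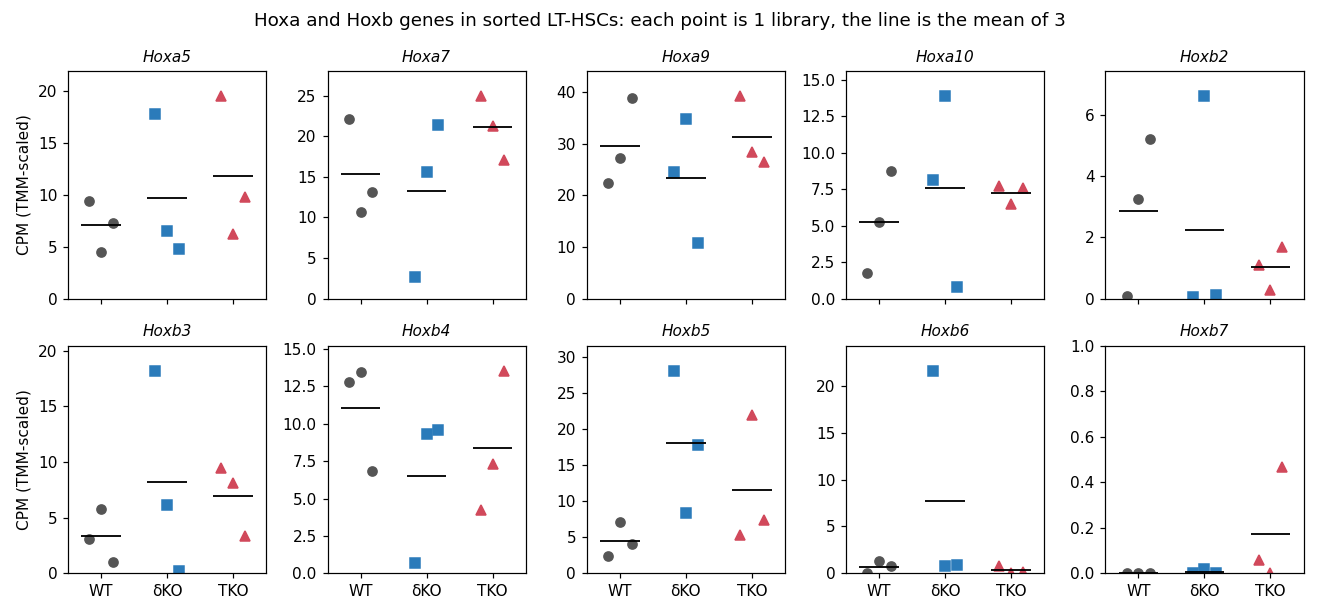
TMM-scaled CPM of each of the 10 members (vertical axes, linear, each panel with its own scale) in WT, δKO and TKO libraries. Each point is 1 library and each line the mean of 3. Libraries of the 3 genotypes overlapped for each member except Hoxb5, where the δKO libraries sit between 8.41 and 28.1 CPM and the WT libraries between 2.39 and 7.11. Libraries of δKO and WT were apart for 11.5% of all genes.

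Hoxa9, a regulator of stem cell self-renewal that is highly expressed in many acute myeloid leukemias, was the most evenly expressed member. It was measured at 22.5, 27.2 and 38.9 CPM in the WT libraries, 24.7, 34.8 and 10.9 CPM in the δKO libraries and 39.3, 28.4 and 26.6 CPM in the TKO libraries. The genotypes overlapped throughout, and the δKO unnumbered library was the only one below the WT range. The log2 fold change of TKO over WT was 0.09 (SE 0.452, 95% interval −0.90 to 1.08, edgeR adjusted p = 1.00), and its sign was not kept when WT replicate 1 or TKO replicate 1 was left out (−0.08 and −0.11).

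Hoxa7, a central Hoxa gene often coexpressed with Hoxa9 in leukemias with MLL rearrangement, was at 22.1, 10.6 and 13.2 CPM in WT and at 24.9, 21.2 and 17.0 CPM in TKO. In δKO it was at 2.59, 15.6 and 21.4 CPM, so that δKO replicate 1 lay far below the other 8 libraries. Between TKO and WT the log2 fold change was 0.46 (SE 0.658) and it was 0.67 in TKO against δKO (SE 0.660), neither past the threshold (edgeR adjusted p = 1.00 and 0.75). Leaving out 1 library gave 0.25 (without WT replicate 2) to 0.82 (without WT replicate 1) for the first and 0.19 (without δKO replicate 1) to 1.21 (without the δKO unnumbered library) for the second.

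Hoxa5, which influences the balance of erythroid and myeloid output, reached its highest levels in 1 δKO and 1 TKO library. It was at 9.42, 4.53 and 7.28 CPM in WT libraries, 17.8, 6.55 and 4.79 CPM in δKO libraries and 19.5, 6.22 and 9.81 CPM in TKO libraries. The remaining TKO and δKO libraries were within or close to the WT range, and edgeR placed TKO 0.74 log2 units above WT (SE 0.697, edgeR adjusted p = 1.00), and 0.18 without TKO replicate 1.

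Hoxa10, the posterior neighbor of Hoxa9, was nearly level among TKO libraries at 7.69, 6.45 and 7.59 CPM (7.24 ± 0.686, SD, n = 3). It spread from 1.76 to 8.76 CPM in WT (5.27 ± 3.50, SD, n = 3) and from 0.811 to 13.9 CPM in δKO (7.59 ± 6.55, SD, n = 3). The difference in spread between genotypes was not tested. The log2 fold change of TKO over WT was 0.46 (SE 0.922), and 0.04 without WT replicate 1 or 1.04 without WT replicate 3. That of TKO over δKO was −0.07 (SE 0.920), and its sign turned in 5 of 22 alternatives, among them leaving out δKO replicate 2 (0.70).

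In the Hoxb cluster, Hoxb4, whose forced expression expands transplantable HSCs, was at 12.8, 13.5 and 6.85 CPM in WT. It was at 0.718, 9.28 and 9.55 CPM in δKO and at 4.23, 7.29 and 13.5 CPM in TKO. The low δKO value was 18 counts in replicate 1, the library that was also low for Hoxa7. TKO differed from WT by a log2 fold change of −0.40 (SE 0.854, 95% interval −2.27 to 1.46, edgeR adjusted p = 1.00), an interval that spans differences in either direction of more than 2-fold. It was −0.94 without TKO replicate 3 and −0.0873 without TKO replicate 1.

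Hoxb5, whose reporter expression marks long-term repopulating HSCs, was the only member whose libraries were apart in a comparison, that of δKO against WT. WT libraries were at 2.39, 7.11 and 4.04 CPM, δKO libraries at 28.1, 8.41 and 17.8 CPM and TKO libraries at 5.39, 21.9 and 7.40 CPM. All 3 δKO libraries exceeded all 3 WT libraries, and the TKO libraries lay between and among them. Libraries of δKO and WT were apart, in either direction, for 11.5% of all genes. In δKO against WT the log2 fold change was 2.00 (SE 0.739, 95% interval 0.39 to 3.62, unadjusted p = 0.0194), but the edgeR adjusted p was 0.699 and DESeq2 gave 0.136. In TKO against WT it was 1.36 (SE 0.725, edgeR adjusted p = 1.00), and 0.50 without TKO replicate 2. Of the 3 δKO libraries, those with the highest Hoxb5 were also those with the fewest genes detected. With genes detected as a covariate the log2 fold change in δKO against WT was 0.75 (unadjusted p = 0.375). Without these 2 libraries, a setting added after seeing the data, it was 0.90, but this leaves the δKO library with the lowest Hoxb5 alone in its group, so a smaller value follows from the choice and it is given as a description.

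Hoxb3, which acts redundantly with Hoxb4 in HSC regeneration, was at 3.09, 5.82 and 1.05 CPM in WT libraries, 18.2, 6.16 and 0.258 CPM in δKO libraries and 9.48, 8.14 and 3.35 CPM in TKO libraries. The δKO group held both the highest and the lowest of the 9 values, the lowest being 7 counts. For TKO over WT the log2 fold change was 1.07 (SE 1.14, edgeR adjusted p = 1.00), and from 0.65 without WT replicate 3 to 1.75 without WT replicate 2. In the same δKO unnumbered library the antisense gene Hoxb3os was at 9.47 CPM, against 0.0399 to 1.92 CPM in the other 8 libraries.

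Hoxb2, known for hindbrain patterning, ranged from 1 count to 372 counts between libraries. It was at 3.26, 5.23 and 6.62 CPM in WT replicates 2 and 3 and δKO replicate 2, and at 1.09, 0.291 and 1.67 CPM in TKO. WT replicate 1, δKO replicate 1 and the δKO unnumbered library held only 4, 1 and 3 counts. The estimate of −1.48 log2 units for TKO over WT (SE 1.75) had a 95% interval from −5.31 to 2.35, and it turned to 0.44 with a replicate block and to 0.18 with genes detected as a covariate.

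Hoxb6, which can immortalize myeloid progenitors when overexpressed, was at 21.6 CPM (541 counts) in δKO replicate 1 and at most 1.37 CPM in each of the other 8 libraries. The other δKO libraries were at 0.784 and 0.848 CPM, WT libraries at 0.0336, 1.37 and 0.740 CPM and TKO libraries at 0.822, 0.0291 and 0.170 CPM. TKO over δKO gave a log2 fold change of −4.48 (SE 1.80, 95% interval −8.42 to −0.54, unadjusted p = 0.0291, edgeR adjusted p = 0.465, DESeq2 adjusted p = 0.0637). Without δKO replicate 1 it was −1.25 (unadjusted p = 0.479), so the difference rested on that library.

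Hoxb7, whose promoter is best known from the kidney collecting system, had no count in 6 of the 9 libraries. It was found at 1 count in δKO replicate 2, 3 counts in TKO replicate 1 and 22 counts (0.466 CPM) in TKO replicate 3. A count of 0 allows up to 3 counts, or 0.0504 to 0.12 CPM by library, and this limit covers counting error only. Hoxb7 did not pass the filter and no fold change is given for it.

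The 3 comparisons ask how LT-HSCs lacking all 3 class IA PI3K catalytic isoforms differ from WT and from littermate controls without Cre, and how those controls differ from WT. They share libraries and are not independent. In TKO against WT no member was called at an adjusted p under 0.05 with a change over 2-fold, where edgeR called 1 of 18205 genes (0.00549%). No member reached an unadjusted p under 0.05, against 4.19% of all genes, and no member was called by DESeq2, which called 0.657% of the genes it tested. The libraries of TKO and WT separated for no member, against 14.4% of all genes. Of the 9 fitted members 6 had a positive and 3 a negative log2 fold change (51.2% of all genes were positive), and their median was 0.46 against 0.02 over all genes, but 0.04 without WT replicate 1.

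In TKO against δKO edgeR called no member and no gene at all (0%), while 10.2% of all genes and 1 of 9 members, Hoxb6, had an unadjusted p under 0.05. DESeq2 called 3.12% of the genes it tested and no member, and libraries separated for no member, against 11.7% of all genes. Positive log2 fold changes were found for 4 members (47.2% of all genes) and negative ones for 5, with a median of −0.07 against −0.06 over all genes, and it turned to 0.69 without δKO replicate 2. In δKO against WT no member was called either (0.00549% of all genes by edgeR, 1.03% by DESeq2), and 1 member, Hoxb5, was under an unadjusted p of 0.05, against 7.01% of all genes. The libraries of both groups separated for 1 of 9 members, again Hoxb5 (11.5% of all genes). Positive log2 fold changes were found for 5 of 9 (52.8% of all genes), and the median was 0.46 against 0.05 over all genes, and it turned to −0.24 without δKO replicate 2. No alternative setting called a member in any comparison.

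**Figure D3:**
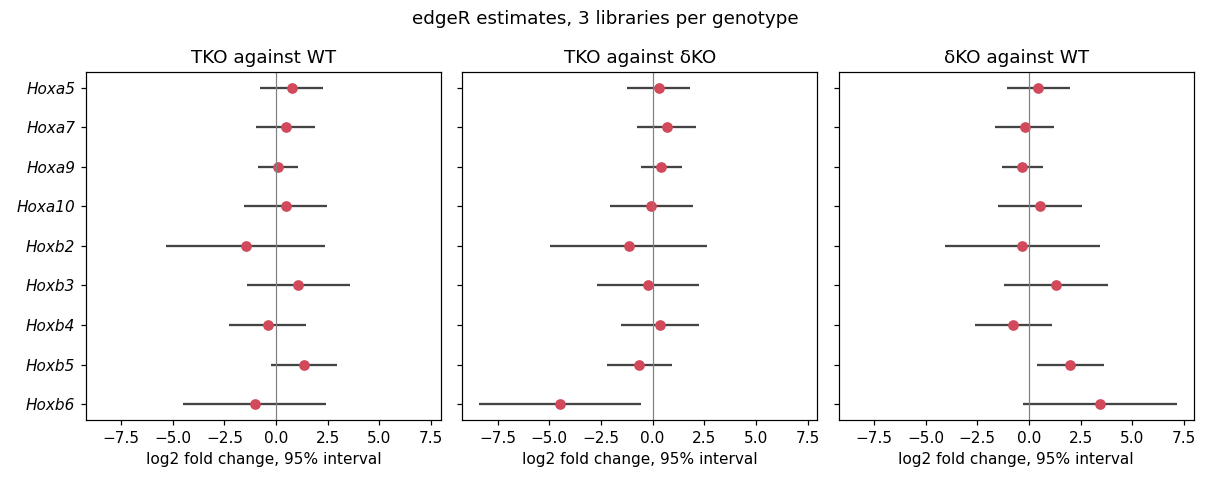
Log2 fold change (points) with its 95% interval (lines) from edgeR for the 9 fitted members in the 3 comparisons, on a shared horizontal axis. Intervals cross 0 for each member except Hoxb6 in TKO against δKO (−8.42 to −0.54) and Hoxb5 in δKO against WT (0.39 to 3.62), and they are widest for Hoxb2 and Hoxb6.

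The width of these intervals followed the spread among libraries of 1 genotype. The pooled within-genotype SD of log2 CPM was 2.73 for Hoxb2, 2.25 for Hoxb6 and 1.96 for Hoxb3, at percentiles 98.5, 92.9 and 85.8 of the fitted genes. It was 0.575 for Hoxa9, at percentile 32.4. The median was 1.34 over the 9 members and 0.890 over all fitted genes, and the mean levels of Hoxb2 and Hoxb6 were at percentiles 24.2 and 21.8. The part of level in the spread was not tested.

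**Figure D4:**
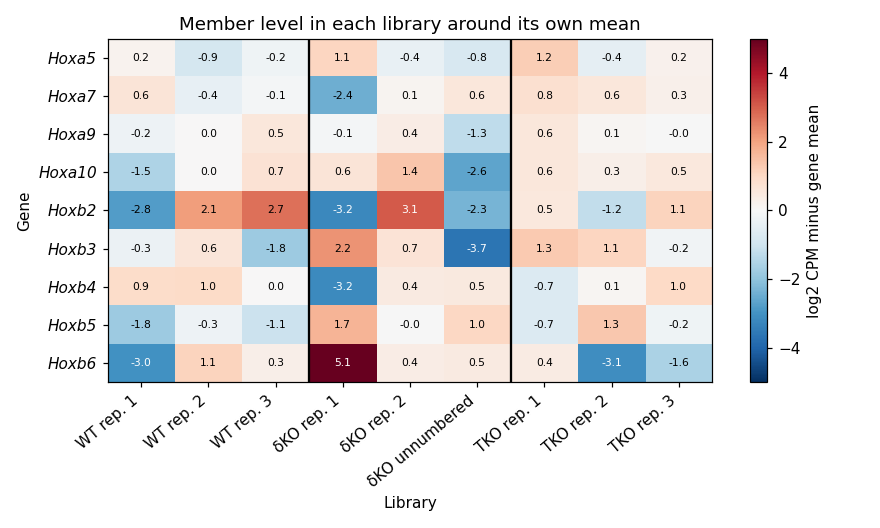
Log2 CPM of each fitted member (rows) in each library (columns) minus that gene's mean over 9 libraries, with red above and blue below the mean and black lines between genotypes. Within δKO, replicate 1 is high for Hoxb6 (5.1) and low for Hoxb2 and Hoxb4 (−3.2 each), and the unnumbered library is low for Hoxb3 (−3.7) and Hoxa10 (−2.6).

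The members did not move as 1 block from library to library. Among pairs within Hoxa the median Pearson correlation of log2 CPM over 9 libraries was 0.15 (6 pairs), within Hoxb −0.03 (10 pairs) and between the clusters 0.00 (20 pairs). The neighbors Hoxa9 and Hoxa10 gave the highest value (r = 0.88, Spearman rho = 0.68), and Hoxa7 with Hoxb6 the lowest (r = −0.83, rho = −0.47). These are descriptions over libraries that share depth and preparation, and δKO replicate 1 or the δKO unnumbered library held the most extreme value of several members.

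Among the 5 genes outside the family whose log2 CPM over the 9 libraries was most like the mean of the members were Fam120c (r = 0.94), Tlk2 (0.94), 2900005J15Rik (0.93) and H2-Q4 (0.93), out of 10765 genes compared. Those most like Hoxa9 were Ppif, Reep2 and Ndrg1 (r = 0.94, 0.93 and 0.93) and those most like Hoxb4 were Tube1, Abcf3 and Uso1 (r = 0.98, 0.97 and 0.97). Of the 11 genes that this rule chose, 1 was chosen again when rank correlation was used.

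Of the 29 Hox genes that are not members, 14 had no count in any library and 7 passed the filter. Hoxa3, an anterior Hoxa gene on the 3′ side of Hoxa5, was at 14.2, 25.3 and 23.9 CPM in TKO, at 7.44, 9.995 and 9.03 CPM in WT and at 10.3, 9.19 and 10.3 CPM in δKO. All 3 TKO libraries exceeded all 6 others, as was so for 386 of the 18205 fitted genes and for no member. TKO and WT libraries were likewise apart in the HSC marker sum (TKO higher) and in the neutrophil and lymphoid marker sums (TKO lower). The part of these sums in the Hoxa3 difference was not tested. The log2 fold change was 1.26 against WT (SE 0.474, edgeR adjusted p = 1.00) and 1.09 against δKO (SE 0.473, edgeR adjusted p = 0.478). DESeq2 on all 9 libraries called both (adjusted p = 0.0194 and 0.0312), and on the genotypes compared alone it called the first (0.0121) but not the second (0.17). The annotated model of Hoxa3 spans Hoxa4, Hoxa5 and Hoxa6 without sharing their exon bases. It shares exon bases with other genes, among them Hoxaas2 (8.36% of its exon bases). Hoxaas2 was itself at 7.48, 2.70 and 5.74 CPM in TKO against 0, 1.30 and 0.258 CPM in δKO (log2 fold change 3.32, edgeR adjusted p = 0.465, and 5.31 without δKO replicate 2). In WT it was at 1.76 to 2.87 CPM, overlapping TKO (log2 fold change 1.23, edgeR unadjusted p = 0.345). Hoxb8, a posterior Hoxb gene, was at 1.97, 0.683 and 2.77 CPM in WT at most 0.196 CPM in δKO and at most 0.631 CPM in TKO. Both groups lay below all 3 WT libraries, with log2 fold changes of −4.22 in δKO (SE 1.88, edgeR adjusted p = 0.699) and −2.89 in TKO (SE 1.76, edgeR adjusted p = 1.00, and −5.34 without TKO replicate 1). Libraries were apart in this direction for 7.39% of all genes in δKO against WT and for 7.47% in TKO against WT.

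**Figure D5:**
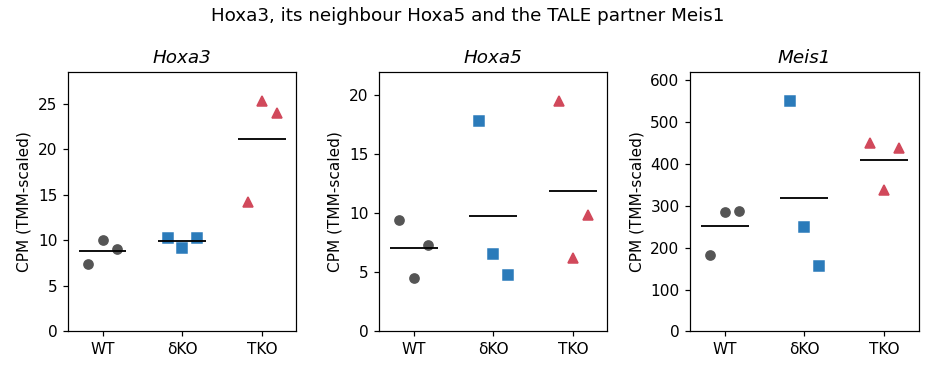
TMM-scaled CPM (linear axes from 0) of Hoxa3, of its neighbor Hoxa5, and of the TALE partner Meis1 in each library, with the mean of 3 as a line. For Hoxa3 the TKO libraries (14.2 to 25.3) sit above all others (7.44 to 10.3), whereas for Hoxa5 the genotypes overlap.

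Among partners and regulators of the Hox proteins, Pknox2, Cdx1 and Cdx4 had no count in any library. The mean level of Meis1 was 252 ± 60.3 CPM over WT libraries, 320 ± 206 over δKO and 409 ± 61.3 over TKO (SD, n = 3). The TKO libraries of Meis1 lay above those of WT (log2 fold change 0.70, SE 0.392, edgeR adjusted p = 1.00), as was so for 6.88% of all genes, but among those of δKO. TKO libraries also lay above those of WT in the HSC marker sum and below them in the neutrophil and lymphoid marker sums. The part of these sums in the Meis1 difference was not tested. Kmt2a averaged 585 ± 29.9 CPM over WT libraries, 787 ± 174 over δKO and 723 ± 163 over TKO (SD, n = 3). No gene of the TALE list (8 of 11 fitted), of the MLL and Cdx list (12 of 15), of the Polycomb list (18 of 18) or of the list of Hoxa9 and Meis1 targets (14 of 14) was called in any of the 3 comparisons by edgeR.

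At an unadjusted p under 0.05, the Polycomb list of 18 genes held 0 in TKO against WT (1.68% of all genes were higher and 2.5% lower), 2 higher in TKO against δKO (4.6% of all genes were higher at this p) and 1 higher in δKO against WT (3.65% of all genes). The first 2 were Cbx7 and Cbx2, Polycomb chromobox genes (log2 fold change 1.36 and 1.32, edgeR adjusted p = 0.465 and 0.478), and the last was Asxl1 (0.82, edgeR adjusted p = 0.699). Without δKO replicate 1 these values were 2.08 for Cbx7, 0.93 for Cbx2 and 0.30 for Asxl1. Of the 14 targets, 1 was under this p with a lower level in TKO against WT (2.5% of all genes), 2 likewise in TKO against δKO (5.56%) and 0 in δKO against WT (3.36% lower). Cdk6, a cell cycle kinase, was at 1866 ± 339 CPM in TKO, 2968 ± 646 in WT and 2880 ± 336 in δKO (SD, n = 3), with TKO libraries below all others (log2 fold change −0.67 and −0.63, edgeR adjusted p = 1.00 and 0.465). TKO libraries were below all others for 307 of the 18205 fitted genes. TKO and WT libraries were also apart in the HSC, neutrophil and lymphoid marker sums, whose part in the Cdk6 difference was not tested. Myb, a transcription factor of progenitor proliferation, was lower in TKO than in δKO without overlap (−0.68, edgeR adjusted p = 0.465). Libraries of TKO and δKO were apart in this direction for 4.74% of all genes. No gene of the TALE and MLL and Cdx lists was under an unadjusted p of 0.05 in any comparison.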

How the data were processed

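Bulk RNA from sorted mouse LT-HSCs was measured in 9 libraries. Genotypes were taken from the sample labels. The deposited raw counts per gene were used, together with the deposited normalized values, whose quotients with the raw counts were constant in each library that both tables name alike (a signal, here counts divided by size factors). Per the labels and the study's methods, cDNA was amplified with the Ovation RNA-Seq System V2, and the submitters' processing notes name Trim Galore 0.3.7, FastQC 0.11.4, STAR 2.5.1b and DESeq2 with mm10. Strandedness, the counting tool's settings and the gene annotation version are not given in the sources used here. One raw δKO column has a replicate number absent from the labels and was used as an unnumbered δKO replicate. One δKO column of the normalized table has no raw column of the same number, so limma on those values may rest on a different δKO library.

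Counts were tested with edgeR 4.0.16 (R 4.3.3), using TMM factors, filterByExpr (minimum count 10, minimum total 15), quasi-likelihood tests on all 9 libraries and Benjamini-Hochberg adjustment over 18205 genes. Calls needed an adjusted p under 0.05 and a change over 2-fold. DESeq2 1.42.0 and limma 3.58.1 (log2 of the normalized value + 1) were alternatives, with other factors, filters, covariates, library subsets and leave-one-out fits. Log2 CPM used a prior count of 2. Gene models and transcripts came from GENCODE M21 (GRCm38, the assembly of mm10). Of 47643 identifiers 47224 matched without version. Likeness was Pearson r over genes averaging 5 CPM or more. The fit was also run on simulated counts with known changes. The outcome is not given here, so it does not bear on how many true changes could be missed. No libraries of 1 genotype agreed within sampling noise, so none was treated as deposited in duplicate, which does not show that they come from separate animals. Total counts were 31300343 to 60386097 per library.

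Members and lists were chosen with earlier results of these data known. Non-members were named from the targeted genes, genes of both clusters and, per list, up to 4 of highest mean CPM and up to 3 of smallest unadjusted p. Whether replicate numbers pair libraries was checked by correlating deviations from genotype means: 0 of 7 same-numbered pairs exceeded 0.1, so no block was used. Some genes and sequences that these rules would name are not reported here.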

Additional observations from a re-analysis of the deposited data

How the results depend on the processing

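No member was called in any of the 3 comparisons under any alternative run, planned or added, and intervals were widest for Hoxb2 and Hoxb6, which have few counts in several libraries. Hoxb2, Hoxb3 and Hoxb6 could not be fitted where at least 10 counts were required in every library. The count of all genes called in TKO against WT (1 with edgeR) was 9 when only the genotypes compared were fitted, 125 with DESeq2 on all 9 libraries, 575 with DESeq2 on the genotypes compared, 12 with limma voom and sample quality weights (chosen after seeing the data) and 1 to 4 over fits that left out 1 library, the 4 being without δKO replicate 1. In TKO against δKO (0 with edgeR) DESeq2 called 552 genes on all 9 libraries and 267 on the genotypes compared. In δKO against WT (1 with edgeR) these were 191 and 194, and 0 when only the genotypes compared were fitted. The cause of these differences was not tested. The median log2 fold change of the members was 0.66 in TKO against δKO with limma on the normalized values (−0.07 in edgeR). Leaving out 1 library gave medians from −0.60 to 0.69 in TKO against δKO, the highest without δKO replicate 2, and from −0.24 to 0.78 in δKO against WT, the lowest without δKO replicate 2. In TKO against WT this range was 0.04 to 0.46. With the longest transcript as length the Hoxa share of the summed member level was 71.1% (65.1% with all exons). Of 11 genes chosen for likeness, 1 was chosen again with Spearman rho and 9 with DESeq2 size factors. Same-numbered libraries did not deviate together (correlations −0.04 to 0.08 over 7 pairs). The replicate block left the count of genes called at 1 in TKO against WT, 0 in TKO against δKO and 1 in δKO against WT. Of the genes of the Hox clusters other than members, DESeq2 put 3 past the threshold in 1 or both of its fits: Hoxa3 (1.27 in TKO against WT, 1.08 in TKO against δKO), Hoxaas2 (3.33 in TKO against δKO) and, only on the genotypes compared, Hoxb8 (−4.20 in δKO against WT). On the genotypes compared the 2 calls in TKO against δKO were lost (adjusted p = 0.17 and 0.199). Marker genes of the lists past it in 1 or both fits were Fgd5 (1.62), Dntt (−3.08), Ighm (−2.70), Nkg7 (−1.83) and Fcgr3 (−2.66) in TKO against WT, Alas2 (1.57) in TKO against δKO and Col1a1 (−6.45) in δKO against WT. Of 42 gene results, 27 kept their sign throughout, and none of the others had been called. The log2 fold changes that turned sign were as follows. With a replicate block they were Hoxb2 0.44 in TKO against WT, Hoxa5 −0.0186, Hoxb2 0.12 in TKO against δKO and Hoxa9 0.0806, Hoxb2 0.33 in δKO against WT. With genes detected as a covariate they were Hoxb2 0.18 in TKO against WT, Hoxb3 0.16, Hoxb4 −0.0446, Hoxb5 0.0246 in TKO against δKO and Hoxa9 0.0798, Hoxb2 1.41 in δKO against WT. With upper-quartile factors they were Hoxa10 0.0256 in TKO against δKO. With limma on the normalized values they were Hoxa10 0.66, Hoxb2 1.12, Hoxb3 1.00 in TKO against δKO. With limma voom and sample quality weights they were Hoxa10 0.34, Hoxb2 0.19, Hoxb3 0.95 in TKO against δKO. Without the 2 δKO libraries with the fewest genes detected (chosen after seeing the data), which leaves 1 δKO library assumed to vary like the other groups and so bears little on stability, they were Hoxa9 −0.15, Hoxb3 0.18, Hoxb4 −0.16, Hoxb5 0.45 in TKO against δKO and Hoxa5 −0.11, Hoxa7 0.0241, Hoxa9 0.24, Hoxb2 1.22 in δKO against WT. Leaving out each library in turn gave the following ranges where a sign turned: Hoxa9 −0.11 to 0.34 in TKO against WT, Hoxb3 −0.80 to 1.11, Hoxb4 −0.18 to 0.73, Hoxa10 −0.60 to 0.70, Hoxb2 −1.73 to 3.69, Hoxa5 −0.28 to 1.06 in TKO against δKO, Hoxa7 −0.75 to 0.27, Hoxb2 −5.17 to 0.45, Hoxa5 −0.32 to 0.78, Hoxb3 −0.0415 to 1.98, Hoxa10 −0.24 to 1.11, Hoxa9 −0.73 to 0.00903 in δKO against WT.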
